A study of Mus musculus with 6 samples.

Results

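Proteasome and immunoproteasome genes were taken from the deposited table by symbol, as every row whose name starts with Psma, Psmb, Psmc, Psmd, Psme, Psmf or Psmg and a number, with rows named as pseudogenes left out, of which there were 0. The rule found 51 of the 41709 genes in the table. Most encode proteasome subunits, activators, an inhibitor or assembly chaperones, and 2 (Psmc3ip and Psme3ip1) carry the name of a subunit that their protein binds. Levels are in TPM, transcripts out of 1000000 after correction for transcript length. A mean of at least 1 TPM over the 6 libraries was required for testing, and 48 members passed. The 3 that did not are Psma8, Psmb11 and Psme2b.

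The proteasome is the main protease of the cytosol and nucleus and degrades proteins that carry ubiquitin chains. Its 20S core is a barrel of alpha and beta subunits, 3 of which (Psmb5, Psmb6 and Psmb7) cut peptide bonds, and its 19S cap unfolds the substrates and feeds them into the barrel. Interferon gamma can induce the exchange of these 3 for Psmb8, Psmb9 and Psmb10, which gives the immunoproteasome, and the PA28 activator made of Psme1 and Psme2. Immune cells carry immunoproteasomes at rest, and the peptides they produce are presented on MHC class I molecules. In skeletal muscle the proteasome is known for breaking down contractile proteins during wasting.

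The libraries were made from tibialis anterior (TA) muscles of male C57BL/6 J mice, dissected 14 days after electroporation of a plasmid. In 3 muscles the plasmid coded for Flag-tagged wild-type mouse Lrpprc (LrpprcWT) and in the other 3, the contralateral muscles, for the same protein with alanine in place of proline 27 (LrpprcP27A), which cannot be hydroxylated at that site. The CMV promoter of pCMV6 is active in many cell types, both groups carry added Lrpprc, and no library from an unelectroporated or GFP muscle was analysed here. The study used mice of 4 and 27 months, and the age of the sequenced mice was not stated outright in the sources used here.

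Lrpprc itself was present at 35.1, 37.0 and 75.2 TPM in the LrpprcWT muscles and at 26.9, 29.7 and 26.02 TPM in the LrpprcP27A muscles, from the gene and the plasmid together. LrpprcWT replicate 2 stood apart, at a score of -0.80 on the first principal component between the other LrpprcWT libraries (-42.4 and -41.6) and the LrpprcP27A libraries (18.0 to 38.9), so that counts are also given without it. Transcripts of the mitochondrial genome took 36.0 to 45.2% of the TPM with LrpprcWT and 44.2 to 46.1% with LrpprcP27A. LrpprcWT replicate 2, at 45.2%, lay within the LrpprcP27A range. A larger mitochondrial share leaves less of the fixed total for the nuclear genes together, and its part in the fold changes was not tested. Over all 11611 tested genes the log2 fold changes had a median of -0.32 on the deposited scale and of -0.0047 on the median-of-ratios scale, which divides each library by its typical ratio to the others. Both scales are reported, and fold changes are LrpprcP27A over LrpprcWT on log2(TPM + 1), which understates the change of genes with few transcripts.

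Markers of other cells also differed between the groups. Of 12 immune cell markers, 9 passed the filter and 8 fell (limma, adjusted p under 0.05), and the summed level of all 12 was 87.7 to 161.4 TPM with LrpprcWT and 30.2 to 59.3 TPM with LrpprcP27A. The T cell genes Cd3e and Cd8a lay near 0, at 0.0545 to 0.331 TPM. All 4 fibroblast markers (468.5 to 734.9 TPM against 132.3 to 280.2 TPM in sum) and 1 of 5 endothelial markers (Cdh5, 158.3 to 285.8 TPM against 116.7 to 162.3 TPM for the list) fell. With the replicate number as a block, 9 immune, 4 fibroblast and 5 endothelial markers fell. On the median-of-ratios scale 4 immune, 2 fibroblast and 0 endothelial markers fell, and 7, 3 and 2 with the block. Of all tested genes, 23.3% fell on the deposited scale and 48.4% with the block. On the median-of-ratios scale 6.03% of all tested genes fell, and 15.8% with the block. Of 9 myofibre markers, Myh2 and Mylpf fell on the deposited scale and did not pass on the other (with the block, 3 fell and Myh4 rose on the first, and 1 fell and 2 rose on the other), and the sum of all 9 was 134975 to 148759 TPM with LrpprcWT and 123757 to 139688 TPM with LrpprcP27A, so that the label of skeletal muscle held. In bulk muscle, fewer cells of a type and less RNA per cell cannot be told apart.

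The 20S and 19S genes were expressed between 28.6 and 332.4 TPM in every library. The highest mean with LrpprcWT was that of Psmb5 (266.4 ± 58.9 TPM, SD, n = 3), followed by Psmb6 (179.9 ± 55.98 TPM) and Psmc5 (172.2 ± 20.01 TPM). The range of Psmb6 over the 3 libraries overlapped with both of its neighbours in this order, and those of Psmb5 and Psmc5 did not overlap. The immunoproteasome genes were far lower, with means of 11.8 ± 2.56 TPM for Psmb10, 6.04 ± 0.971 TPM for Psmb8 and 2.84 ± 0.300 TPM for Psmb9. Together these 3 reached 3.91% ± 0.149 (SD, n = 3) of the summed TPM of Psmb5, Psmb6 and Psmb7. Psma8, a testis form of an alpha subunit, and Psmb11, a form of the thymus cortex, were at or under 0.0875 TPM in every library. Psme2b, a near copy of Psme2, was at 0.296 to 1.16 TPM.

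**Figure D1:**
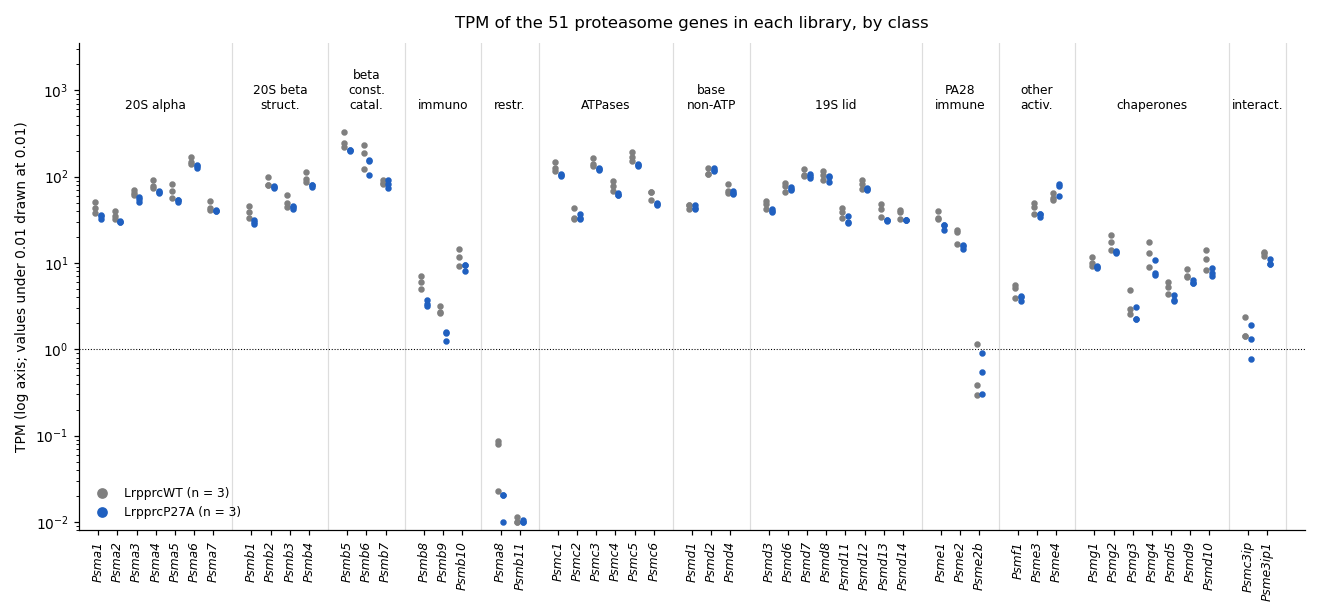
TPM (log axis) of each of the 51 genes, 1 point for each library, with LrpprcWT in grey and LrpprcP27A in blue, grouped by class, with a dotted line at the mean of 1 TPM needed for testing. Psmb5 is highest, at 198.3 to 332.4 TPM, and Psmb8 and Psmb9 lie between 1.26 and 7.003 TPM.

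On the deposited scale, 2 of the 48 tested members, Psmb8 and Psmb9, fell with LrpprcP27A, and none rose (limma, adjusted p under 0.05). That is 4.17% of the members against 23.3% of all tested genes called lower and 1.34% called higher. Without adjustment, 21 of the 48 members had a limma p under 0.05 in the lower direction and 0 in the higher. Of all 11611 tested genes, 5134 and 301 did, a share lower that is close to that of the members. The unadjusted counts by class and list on the deposited scale below have this background. The members' log2 fold changes had a median of -0.28, against -0.32 for all genes, and 46 of 48 (95.83%) were below 0, against 87.99% of all tested genes. In 28 members (58.3%) all LrpprcP27A values lay below all LrpprcWT values, against 47.6% of all tested genes, and in 0 all lay above, against 3.51%. At this size the Kruskal-Wallis test has an unadjusted p under 0.05 only where the groups do not overlap. Its counts, 28 and 0, are therefore the same counts and no further result. Its p is approximate, and an exact permutation test of this size cannot go below 0.1.

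The number called depended on the pairing, on a single library and on the scale. With the replicate number as a block, so that the muscles of the same number were compared, 22 members (45.8%) were lower and 0 higher, where all tested genes had 48.4% and 2.69%. Without LrpprcWT replicate 2, 34 members (70.8%) were lower and 0 higher, against 59.5% and 2.62% of all genes. That library was the LrpprcWT library nearest to the LrpprcP27A libraries on the first principal component. Without LrpprcP27A replicate 1, 1 member was lower, and 0 were lower when any other single library was left out. In these fits 15 to 1688 of all 11611 tested genes were lower. On the median-of-ratios scale, 1 member was lower (Psmb8) and 2 were higher (Psmd2 and Psme4), against 6.03% and 5.25% of all genes. On it 34 of the 48 members and 5714 of all 11611 tested genes lay above 0. With both the block and this scale, 2 were lower (Psmb8 and Psmb9) and 8 higher (Psmb7, Psmc2, Psmd1, Psmd2, Psmd6, Psmd7, Psmd8 and Psme4), against 15.8% and 13.4% of all genes.

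Psmb8, the immunoproteasome form of Psmb5, was at 6.07, 5.06 and 7.003 TPM in the LrpprcWT muscles and at 3.36, 3.17 and 3.69 TPM in the LrpprcP27A muscles. The groups did not overlap, and the LrpprcP27A mean was 43.7% lower (log2 fold change -0.67 ± 0.149, SE, limma adjusted p = 0.0239, and 0.000548 with the block). Psmb8 was also lower on the median-of-ratios scale (-0.36 ± 0.0865, SE, limma adjusted p = 0.0434). The adjusted p ranged from 0.000548 to 0.106 over the alternatives, and it was under 0.05 in 2 of the 6 fits that leave out a library, those without LrpprcWT replicate 2 (0.00384) and without LrpprcP27A replicate 1 (0.0480).

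Psmb9, which takes the place of Psmb6, was at 2.65, 2.70 and 3.19 TPM with LrpprcWT and at 1.26, 1.53 and 1.60 TPM with LrpprcP27A. Again no LrpprcP27A muscle reached the lowest LrpprcWT muscle. Its mean was 48.5% lower (log2 fold change -0.64 ± 0.139, SE, limma adjusted p = 0.0226, and 0.00117 with the block). It stood at -0.39 on the median-of-ratios scale (limma adjusted p = 0.0656, and 0.0243 with the block). Of the fits without 1 library, only the fit without LrpprcWT replicate 2 kept it under 0.05 (0.00684), in a range of 0.00117 to 0.215 over all alternatives.

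Psmb10, which takes the place of Psmb7, was at 11.8, 9.28 and 14.4 TPM with LrpprcWT and at 9.45, 8.07 and 9.45 TPM with LrpprcP27A. These groups overlapped, with a log2 fold change of -0.34 (limma adjusted p = 0.134, and 0.0360 with the block) that went to 0.00021 on the median-of-ratios scale. Psmb8 and Psmb9 thus lay below the median of all tested genes on both scales, by more than their SE, while Psmb10 lay close to that median on each (-0.34 against -0.32, and 0.00021 against -0.0047). The immune cell and fibroblast markers fell in the same muscles, and their part in the values of Psmb8 and Psmb9 was not tested.

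**Figure D2:**
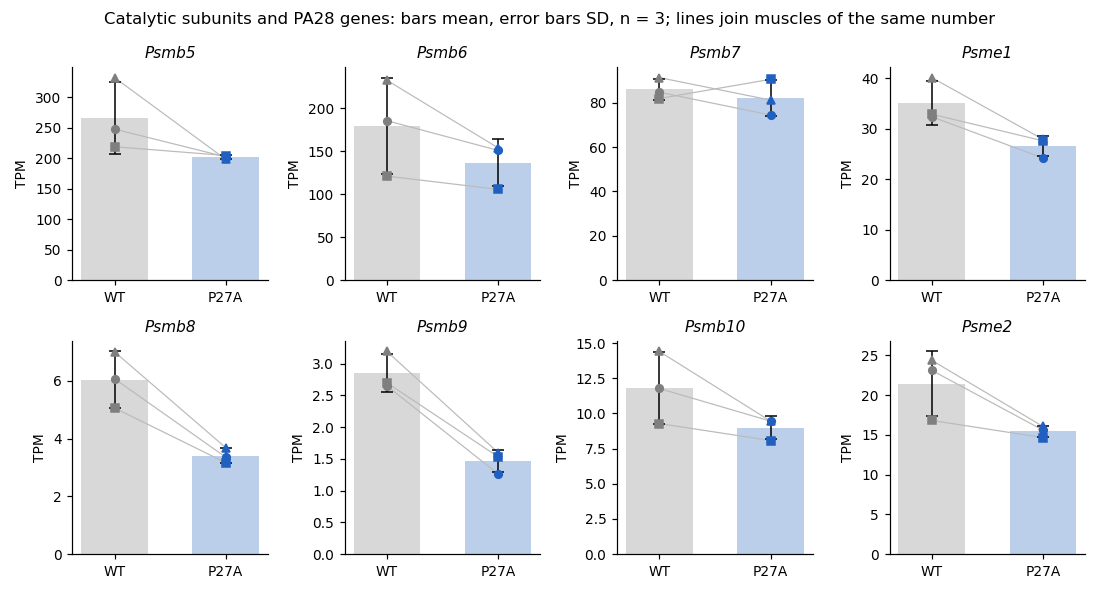
TPM of the constitutive and immunoproteasome catalytic subunits and of Psme1 and Psme2 in LrpprcWT (grey) and LrpprcP27A (blue) muscles, with bars for the mean, error bars for the SD (n = 3) and lines between muscles of the same number. Psmb8 falls from between 5.06 and 7.003 TPM to between 3.17 and 3.69 TPM and Psmb9 from between 2.65 and 3.19 TPM to between 1.26 and 1.60 TPM, while the groups of Psmb6, Psmb7 and Psmb10 overlap.

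The constitutive catalytic subunits had no call in the unpaired comparison. Psmb5, with the chymotrypsin-like activity, was at 247.8, 218.9 and 332.4 TPM with LrpprcWT and at 202.4, 204.6 and 198.3 TPM with LrpprcP27A. The groups did not overlap, but the spread of the LrpprcWT muscles was wide (log2 fold change -0.38, limma adjusted p = 0.0832, and 0.0233 with the block). Psmb6, with the caspase-like activity, was at 185.7, 121.2 and 232.7 TPM against 151.1, 105.7 and 154.0 TPM. Replicate 2 was lowest in both groups, and the log2 fold change of -0.36 had a limma adjusted p of 0.241, or 0.0205 when the same numbers were paired. Psmb7, with the trypsin-like activity, was at 84.7, 81.9 and 91.3 TPM against 74.4, 90.5 and 81.1 TPM, and this was the smallest difference of the 3 on the deposited scale (-0.07, limma adjusted p = 0.619). Against the typical gene, on the median-of-ratios scale, Psmb5, Psmb6 and Psmb7 stood at -0.0033, 0.012 and 0.30.

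A ratio within a library does not depend on how the library is scaled, and such ratios are given without a test. The summed TPM of Psmb8, Psmb9 and Psmb10 was 3.95, 4.04 and 3.75% of that of Psmb5, Psmb6 and Psmb7 in the LrpprcWT muscles and 3.29, 3.19 and 3.40% in the LrpprcP27A muscles. All LrpprcP27A muscles were below all LrpprcWT muscles, by 0.25 on the log2 scale. Psmb8 over Psmb5 was 2.45, 2.31 and 2.11% against 1.66, 1.55 and 1.86%, again without overlap. Psmb9 over Psmb6 (1.37 to 2.22% against 0.835 to 1.45%) and Psmb10 over Psmb7 (11.3 to 15.8% against 8.92 to 12.7%) overlapped between the groups, though each was lower with LrpprcP27A in 3 of 3 same-numbered pairs. Ratios to the 20S core, taken as Psma1 to Psma7 and Psmb1 to Psmb7, were not among the comparisons set beforehand. Relative to it, Psmb9 was at 0.208 to 0.243% against 0.120 to 0.148%. Psmb8 was at 0.457 to 0.481% against 0.301 to 0.341%. Psmb10 overlapped between the groups there too, at 0.837 to 0.940% against 0.768 to 0.901%.

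Psmb8 and Psmb9 lie within the MHC region of chromosome 17, on either side of Tap1, a subunit of the peptide transporter, and next to Tap2, its partner. In the GENCODE annotation of GRCm39 the 4 protein-coding genes follow each other over 34870 bases as Psmb9 (chr17:34400960-34406738, minus strand), Tap1 (chr17:34405996-34416199, plus strand), Psmb8 (chr17:34416690-34420428, plus strand) and Tap2 (chr17:34422501-34435829, plus strand). All 4 fell on the deposited scale, Tap1 by 0.65 (limma adjusted p = 0.0492) and Tap2 by 0.68 (adjusted p = 0.0193) on the log2 scale, and on the median-of-ratios scale only Psmb8 of the 4 passed (Tap1 -0.36, limma adjusted p = 0.185, and Tap2 -0.34, adjusted p = 0.0531, or 0.0247 with the block). Tap1 was at 5.69, 3.83 and 5.46 TPM with LrpprcWT and at 2.13, 2.51 and 3.89 TPM with LrpprcP27A, an overlap of a single muscle. The annotated ends of Psmb9 and Tap1 share 743 bases, and the library kit does not mark strand, so that reads from this stretch cannot be told apart by strand.

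The start windows of genes discussed here are shown because Psmb8, Psmb9 and Tap1 fell together and Psmb5, Psmd2 and Psme4 had no such call. Windows run from 250 bases before to 50 after the start of the gene in the RefSeq table of GRCm38.p6, which held 43 of the 51 members. They were searched on both strands for 3 motifs, an ISRE-like motif of interferon-stimulated genes (GAAA, any 2 bases, then GAAA again), a GAS-like TTCNNNGAA of genes that respond to interferon gamma and an antioxidant-like TGANNNNGC, the kind of element bound by Nfe2l1 and Nfe2l2, where N is any base. Capitals mark the matches, and no match overlapped another in the windows shown. The RefSeq starts of Psmb9 and Tap1 lie 226 bases apart on opposite strands, so that their windows share 275 bases and only the Psmb9 window is shown. The windows are Psmb8 (chr17:34197945-34198244, plus strand), Psmb9 (chr17:34187281-34187580, minus strand), Psmb5 (chr14:54617946-54618245, minus strand), Psme1 (chr14:55578244-55578543, plus strand), Psme4 (chr11:30771525-30771824, plus strand) and Psmd2 (chr16:20651402-20651701, plus strand), all in GRCm38.p6 and written 5′ to 3′ on the strand of the gene.
Psmb8: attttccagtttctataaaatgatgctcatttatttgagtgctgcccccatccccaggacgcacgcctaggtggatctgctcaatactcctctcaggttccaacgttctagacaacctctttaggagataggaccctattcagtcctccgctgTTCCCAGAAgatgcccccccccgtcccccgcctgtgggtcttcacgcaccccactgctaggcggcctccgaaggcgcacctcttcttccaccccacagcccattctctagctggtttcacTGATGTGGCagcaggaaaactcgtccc
Psmb9: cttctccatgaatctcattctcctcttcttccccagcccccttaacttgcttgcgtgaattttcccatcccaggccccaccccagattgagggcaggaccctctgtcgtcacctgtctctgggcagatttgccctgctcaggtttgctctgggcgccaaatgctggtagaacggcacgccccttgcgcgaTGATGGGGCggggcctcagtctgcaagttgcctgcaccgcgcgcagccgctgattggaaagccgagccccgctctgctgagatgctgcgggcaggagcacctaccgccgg
Psmb5: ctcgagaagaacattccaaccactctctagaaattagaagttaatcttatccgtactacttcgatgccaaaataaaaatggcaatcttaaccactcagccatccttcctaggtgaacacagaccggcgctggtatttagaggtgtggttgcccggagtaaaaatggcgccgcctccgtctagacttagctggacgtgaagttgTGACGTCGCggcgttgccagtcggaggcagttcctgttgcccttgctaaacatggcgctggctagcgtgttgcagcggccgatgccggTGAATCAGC
Psme1: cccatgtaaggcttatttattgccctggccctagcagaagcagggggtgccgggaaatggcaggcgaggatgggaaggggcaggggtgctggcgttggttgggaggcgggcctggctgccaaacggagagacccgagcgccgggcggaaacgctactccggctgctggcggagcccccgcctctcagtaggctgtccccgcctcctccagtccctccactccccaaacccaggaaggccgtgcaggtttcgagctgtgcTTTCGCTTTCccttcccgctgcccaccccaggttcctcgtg
Psme4: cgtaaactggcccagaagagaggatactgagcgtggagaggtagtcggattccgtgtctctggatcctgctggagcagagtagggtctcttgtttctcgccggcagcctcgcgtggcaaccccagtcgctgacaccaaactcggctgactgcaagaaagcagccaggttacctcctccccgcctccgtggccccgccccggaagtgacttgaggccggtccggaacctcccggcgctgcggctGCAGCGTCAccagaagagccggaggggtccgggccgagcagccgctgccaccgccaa
Psmd2: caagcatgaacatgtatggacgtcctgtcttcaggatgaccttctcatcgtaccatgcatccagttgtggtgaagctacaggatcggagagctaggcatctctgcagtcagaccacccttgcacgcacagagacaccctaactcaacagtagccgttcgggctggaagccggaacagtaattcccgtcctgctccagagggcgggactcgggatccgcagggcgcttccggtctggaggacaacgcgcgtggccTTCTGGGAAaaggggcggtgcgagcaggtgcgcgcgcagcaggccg

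The Psmb8 window held a GAS-like match 97 bases before the start, and the Psmb9 window held neither of the interferon motifs. Psme1 had an ISRE-like match just after its start, and Psmd2 a GAS-like match there. The ISRE-like motif was found in 3.44% of all 32851 windows of the table and in 5 of the 47 member windows (Psmb3, Psmd4, Psmd9, Psme1 and Psmg4), and the GAS-like motif in 8.30% of all windows and in 3 member windows (Psmb8, Psmd2 and Psmg1). The antioxidant-like motif was frequent everywhere, in 41.3% of all windows and in 27 of 47 member windows (57.4%), among them 2 matches in Psmb5 and 1 each in Psmb6, Psmb8, Psmb9 and Psme4. These matches describe the letters of the windows and show nothing about binding.

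Psme1 and Psme2, which together form the PA28 cap of the 20S core, are neighbours on chromosome 14 (chr14:55815190-55822034 and chr14:55824895-55829173 in GRCm39). Psme1 was at 32.3, 32.8 and 40.1 TPM with LrpprcWT and at 24.2, 27.6 and 27.9 TPM with LrpprcP27A (log2 fold change -0.39, limma adjusted p = 0.0536, and 0.0148 with the block). Psme2 was at 23.1, 16.8 and 24.4 TPM against 15.6, 14.7 and 16.1 TPM (-0.43, limma adjusted p = 0.0638, and 0.0102 with the block). Both had groups without overlap and missed the threshold in the unpaired comparison, and on the median-of-ratios scale they stood near 0, at -0.023 and -0.076. The ratio of Psme2 to Psme1 was 51.2 to 71.5% with LrpprcWT and 53.1 to 64.5% with LrpprcP27A.

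The other activators and the inhibitor had log2 fold changes of both signs. Psme4, which encodes PA200, a single large protein that caps the core and is linked to the turnover of acetylated histones, was at 65.1, 54.0 and 57.1 TPM with LrpprcWT and at 59.8, 81.1 and 78.8 TPM with LrpprcP27A. LrpprcP27A replicate 1 lay within the range of the LrpprcWT muscles and the other two above it (log2 fold change 0.31, limma adjusted p = 0.122). Psme4 rose on the median-of-ratios scale, by 0.67 ± 0.148 (SE, limma adjusted p = 0.0375, and 0.0169 with the block). Against the 20S core it was 5.15, 4.87 and 3.73% with LrpprcWT and 5.70, 7.72 and 7.30% with LrpprcP27A, without overlap. Psme3, the nuclear PA28 form, was at 44.6, 37.4 and 49.98 TPM against 37.1, 34.1 and 37.1 TPM (-0.27, limma adjusted p = 0.127), and it stayed at 3.26 to 3.53% and 3.24 to 3.53% of the core. Psmf1, the inhibitor PI31, was at 3.95 to 5.55 TPM against 3.60 to 4.13 TPM.

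The summed 20S core was at 1263, 1108 and 1531 TPM with LrpprcWT and at 1049, 1051 and 1079 TPM with LrpprcP27A, 18.5% lower in the mean and without overlap. Among the 7 alpha subunits of the 20S core, which form its outer rings and gate, none passed the test (4 had an unadjusted limma p under 0.05, and 3 passed with the block), and all 7 had groups without overlap. Of all tested genes, 48.4% were lower with the block, and in 47.6% all LrpprcP27A values lay below all LrpprcWT values. Psma5 had the lowest log2 fold change (-0.38, limma adjusted p = 0.0741, and 0.0191 with the block), from 68.1, 56.7 and 82.2 TPM to 53.4, 50.4 and 53.4 TPM. Psma7 had the highest (-0.16, limma adjusted p = 0.281), from 43.3, 41.6 and 51.6 TPM to 40.2, 40.5 and 40.6 TPM. The LrpprcP27A muscles were closely grouped in both, and LrpprcWT replicate 2 was the LrpprcWT muscle nearest to them. Of the 4 structural beta subunits, Psmb1 was lowest (39.2, 33.0 and 45.7 TPM against 28.6, 29.7 and 31.1 TPM, -0.38, limma adjusted p = 0.0654, and 0.0188 with the block). Psmb2 was highest (80.2, 80.6 and 98.1 TPM against 76.5, 78.4 and 73.5 TPM, -0.17, limma adjusted p = 0.241). On the median-of-ratios scale 9 of these 11 genes lay above 0, with medians of 0.12 for the alpha and 0.10 for the structural beta subunits, and none passed.

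The 6 ATPases of the 19S base, which unfold and thread the substrate, all had log2 fold changes below 0 on the deposited scale and above 0 on the median-of-ratios scale, and none passed on either (4 had an unadjusted limma p under 0.05 on the first, and 4 passed with the block). With the block 48.4% of all tested genes were lower on the deposited scale. Psmc6 was lowest, at 66.4, 54.2 and 66.2 TPM with LrpprcWT and 46.5, 48.8 and 49.2 TPM with LrpprcP27A (-0.36, limma adjusted p = 0.0516, and 0.0222 with the block). Psmc2 was highest, at 33.6, 32.5 and 43.5 TPM against 32.6, 33.4 and 36.8 TPM (-0.08, limma adjusted p = 0.646). Relative to the 20S core, the summed ATPases were 45.9 to 50.1% with LrpprcWT and 46.6 to 48.7% with LrpprcP27A, and these ranges overlapped.

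Among the members, the 3 other subunits of the 19S base that the symbols matched had the highest median log2 fold change of all classes. It was -0.03 on the deposited scale and 0.34 on the median-of-ratios scale. Psmd2, a scaffold that docks ubiquitin-like domains, was at 108.5, 107.5 and 127.0 TPM with LrpprcWT and at 115.3, 119.6 and 126.2 TPM with LrpprcP27A (log2 fold change 0.08, limma adjusted p = 0.567). Psmd2 rose on the median-of-ratios scale by 0.45 ± 0.103 (SE, limma adjusted p = 0.0404, and 0.0123 with the block). Psmd1, the other scaffold, had a log2 fold change of -0.03 on the deposited scale and 0.34 on the other (limma adjusted p = 0.0517, and 0.0242 with the block). Psmd4, a receptor for ubiquitin chains, was lowest of the 3, at 67.6, 65.5 and 82.6 TPM against 63.4, 64.9 and 67.4 TPM (-0.13, limma adjusted p = 0.377). As a share of the 20S core, Psmd2 was 8.59, 9.70 and 8.29% with LrpprcWT and 10.99, 11.4 and 11.7% with LrpprcP27A, and the 3 genes together were 16.8 to 19.4% against 21.0 to 22.3%.

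Of the 8 lid subunits that the symbols matched, none passed on either scale (1 had an unadjusted limma p under 0.05 on the deposited scale, and 1 passed with the block, where 48.4% of all tested genes were lower). Psmd13 was lowest, at 41.9, 34.3 and 48.2 TPM with LrpprcWT and 31.4, 30.4 and 31.2 TPM with LrpprcP27A (-0.39, limma adjusted p = 0.0609, and 0.0158 with the block). Psmd6 was highest, at 77.6, 66.8 and 84.4 TPM against 70.6, 75.1 and 71.0 TPM (-0.07, limma adjusted p = 0.619, and on the median-of-ratios scale 0.30, limma adjusted p = 0.0597, and 0.0274 with the block). Psmd14, the deubiquitinase that removes the chain before degradation, was at 32.1 to 40.8 TPM against 31.2 to 31.6 TPM. The summed lid was 42.5, 42.7 and 39.3% of the 20S core with LrpprcWT and 43.8, 45.5 and 45.7% with LrpprcP27A, a small difference without overlap. The symbols matched 31 subunits of the 26S proteasome, counting the 20S core with Psmb5 to Psmb7 and the 19S cap. Their median log2 fold change was -0.24 on the deposited scale (0 called by limma, 12 lower at an unadjusted p under 0.05, and 12 with the block). On the median-of-ratios scale it was 0.13 (1 higher, and 7 with the block). Of all tested genes, 48.4% were lower with the block on the deposited scale. On the median-of-ratios scale 5.25% of all tested genes were higher, and 13.4% with the block.

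**Figure D3:**
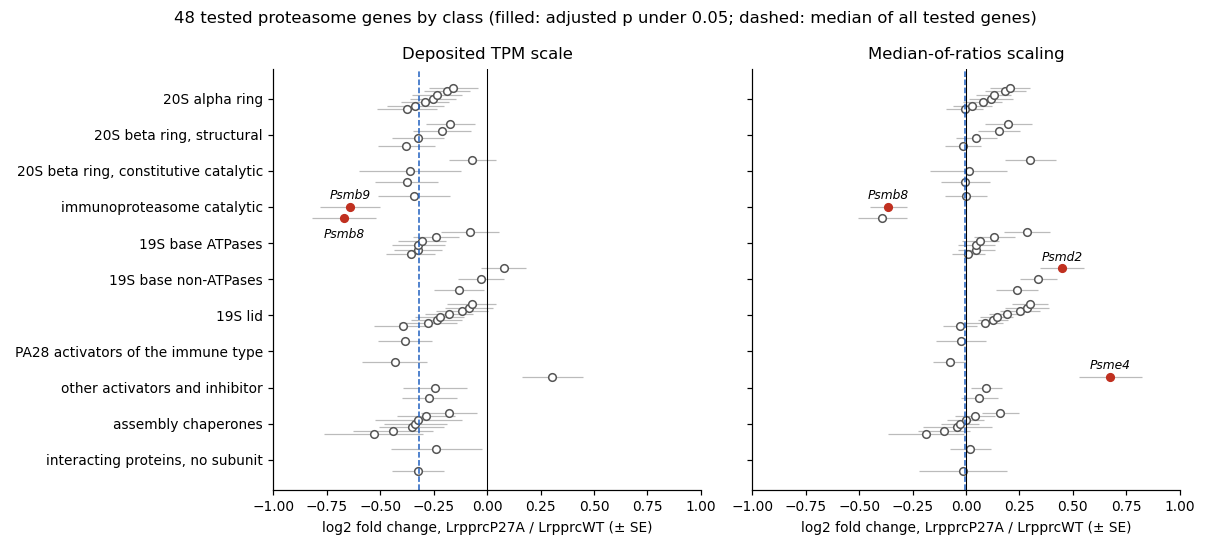
Log2 fold changes (LrpprcP27A over LrpprcWT, ± SE) of the 48 tested genes by class, on the deposited scale (left) and on the median-of-ratios scale (right), with red points for an adjusted p under 0.05 and a dashed line at the median of all tested genes, -0.32 on the left and -0.0047 on the right. Psmb8 and Psmb9 are lowest in both panels, and Psme4 and Psmd2 are highest.

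The Psmd2, Psmd1 and Psme4 ratios were chosen after their values had been seen and only describe these 6 muscles. The exact permutation test of 3 against 3 muscles cannot give a two-sided p below 0.1, so that separate groups in a ratio cannot pass 0.05 there either.

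**Figure D4:**
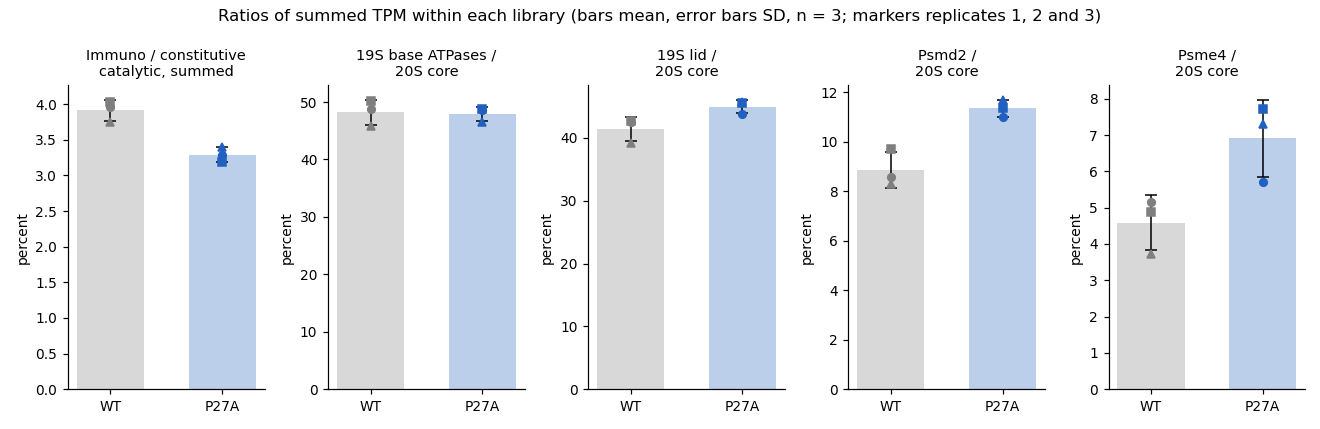
Ratios of summed TPM within each library, in percent, for LrpprcWT (grey) and LrpprcP27A (blue), with bars for the mean, error bars for the SD (n = 3) and markers for the replicates. The immunoproteasome share is 3.75 to 4.04% against 3.19 to 3.40%, the ATPases overlap between the groups, and Psmd2 (8.29 to 9.70% against 10.99 to 11.7%) and Psme4 (3.73 to 5.15% against 5.70 to 7.72%) are higher with LrpprcP27A.

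The assembly chaperones Psmg1 to Psmg4 help to build the alpha and beta rings, and Psmd5, Psmd9 and Psmd10 the base. None of the 7 passed on the deposited scale, where 4 had an unadjusted limma p under 0.05. With the block 4 fell, as did 48.4% of all tested genes, and none passed on the median-of-ratios scale. Psmg4 was lowest, at 13.02, 8.94 and 17.4 TPM with LrpprcWT and 7.33, 7.72 and 10.7 TPM with LrpprcP27A (-0.53, limma adjusted p = 0.105, and 0.00423 with the block). The groups overlapped because LrpprcP27A replicate 3 lay above LrpprcWT replicate 2, while each pair of the same number was lower with LrpprcP27A. Psmg1 was highest, at 10.03, 9.26 and 11.7 TPM against 8.89, 8.69 and 9.35 TPM (-0.18, limma adjusted p = 0.283). Of the 2 genes that encode no subunit, Psme3ip1 (12.2 to 13.6 TPM against 9.62 to 11.05 TPM, limma adjusted p = 0.0730, and 0.0378 with the block) and the meiotic gene Psmc3ip (1.42 to 2.34 TPM against 0.773 to 1.90 TPM) did not pass either.

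Genes that act with the proteasome were taken as a list of 30, of which 29 were in the table and tested and Paaf1 was not among them. On the deposited scale 2 fell and 0 rose by limma (6 and 1 at an unadjusted p under 0.05), against 23.3% and 1.34% of all tested genes, and the median log2 fold change was -0.11. With the block 7 fell and 0 rose, against 48.4% and 2.69% of all tested genes. On the median-of-ratios scale 0 fell and 5 rose (Ecpas, Ubqln4, Ddi2, Nfe2l1 and Nploc4), or 9 with the block, to a median of 0.20. There 6.03% of all tested genes fell and 5.25% rose, or 15.8% and 13.4% with the block. Akirin2, which brings proteasomes into the nucleus, was at 30.0, 22.3 and 29.2 TPM against 18.95, 19.13 and 16.47 TPM (-0.55, limma adjusted p = 0.0319). Rps27a, which codes for a fusion of ubiquitin and a ribosomal protein, was at 148.1, 133.1 and 186.2 TPM against 96.7, 101.5 and 98.1 TPM (-0.64, limma adjusted p = 0.0204). Both had groups without overlap, and neither passed on the median-of-ratios scale (-0.19 and -0.27, limma adjusted p = 0.211 and 0.117).

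Nfe2l1, the factor that drives proteasome genes when proteasome activity is short, was at 295.0, 261.8 and 277.4 TPM with LrpprcWT and 288.0, 263.8 and 298.4 TPM with LrpprcP27A. Its levels overlapped between the groups (0.03, limma adjusted p = 0.832), and on the median-of-ratios scale it rose by 0.40 (limma adjusted p = 0.0454). Nfe2l2, the related oxidative stress factor, was at 34.8, 15.9 and 35.6 TPM against 16.98, 12.6 and 27.1 TPM, with a wide spread in both groups (-0.56, limma adjusted p = 0.205, and 0.00322 with the block). Pomp, the maturation factor of the core, was at 24.8, 20.7 and 30.4 TPM against 18.9, 18.9 and 19.1 TPM (-0.38, limma adjusted p = 0.0789, and 0.0225 with the block). The polyubiquitin gene Ubb (765.8 to 881.8 TPM against 724.4 to 793.4 TPM) had no call on the deposited scale.

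Most genes of MHC class I peptide loading had lower levels with LrpprcP27A. All 12 were tested, 9 fell by limma (B2m, Pdia3, H2-D1, H2-K1, Tap2, Tap1, Calr, Tapbp and Canx), 0 rose, also at an unadjusted p under 0.05, and the median log2 fold change was -0.65, where that of all tested genes was -0.32. Of all tested genes, 23.3% fell on this scale. On the median-of-ratios scale 3 fell (B2m, H2-K1 and H2-D1), or 8 with the block, at a median of -0.33. There 6.03% of all tested genes fell, or 15.8% with the block. The lowest was B2m, the light chain of class I, at 605.6, 365.7 and 603.0 TPM with LrpprcWT and 257.0, 186.7 and 290.9 TPM with LrpprcP27A (-1.08, limma adjusted p = 0.0205). Pdia3, a disulphide isomerase of the loading complex, was at 62.2, 43.4 and 79.5 TPM against 31.2, 21.7 and 34.6 TPM (-1.04, limma adjusted p = 0.0245). H2-D1, a class I heavy chain, was at 201.4, 156.4 and 252.9 TPM against 109.6, 82.0 and 110.9 TPM (-0.99, limma adjusted p = 0.0168). The called genes with the smallest differences were Calr (106.1 to 169.2 TPM against 73.4 to 94.998 TPM), Tapbp (19.3 to 27.4 TPM against 13.1 to 16.4 TPM) and Canx (35.8 to 56.7 TPM against 26.99 to 34.8 TPM), chaperones of the loading complex, at -0.65, -0.62 and -0.60. Reads of H2-D1 and those of H2-K1 may be shared between class I genes of similar sequence. Nlrc5, the activator of class I and immunoproteasome genes, was at 2.40, 1.43 and 1.92 TPM against 0.768, 0.870 and 1.41 TPM (-0.53, limma adjusted p = 0.0598, and 0.01003 with the block).

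Of 9 genes of interferon gamma signalling, 8 were tested, 2 fell and 0 rose by limma (4 and 0 at an unadjusted p under 0.05), at a median of -0.40, and on the median-of-ratios scale 0 fell and Jak2 rose. With the block 4 of the 8 fell, and 2 fell and 2 rose on the median-of-ratios scale. The shares called lower on the deposited scale were close to those of all tested genes, 23.3% without and 48.4% with the block. On the median-of-ratios scale 6.03% of all tested genes fell and 5.25% rose, or 15.8% and 13.4% with the block. Ifng itself was at 0 to 0.0443 TPM in all 6 libraries. Irf1, a factor that binds ISRE-like elements, was at 12.2, 7.52 and 12.2 TPM with LrpprcWT and 5.09, 3.39 and 7.75 TPM with LrpprcP27A (-0.89, limma adjusted p = 0.0439). Socs1, an inhibitor of the Jak kinases, was at 0.907, 2.22 and 1.59 TPM against 0.466, 0.456 and 0.455 TPM (-0.79, limma adjusted p = 0.0282). In Irf1 the LrpprcP27A replicate 3 lay above LrpprcWT replicate 2, so that the groups overlapped, and each same-numbered pair was lower with LrpprcP27A. Immune cells express many of these genes, and the part of the lower immune cell markers in them was not tested.

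**Figure D5:**
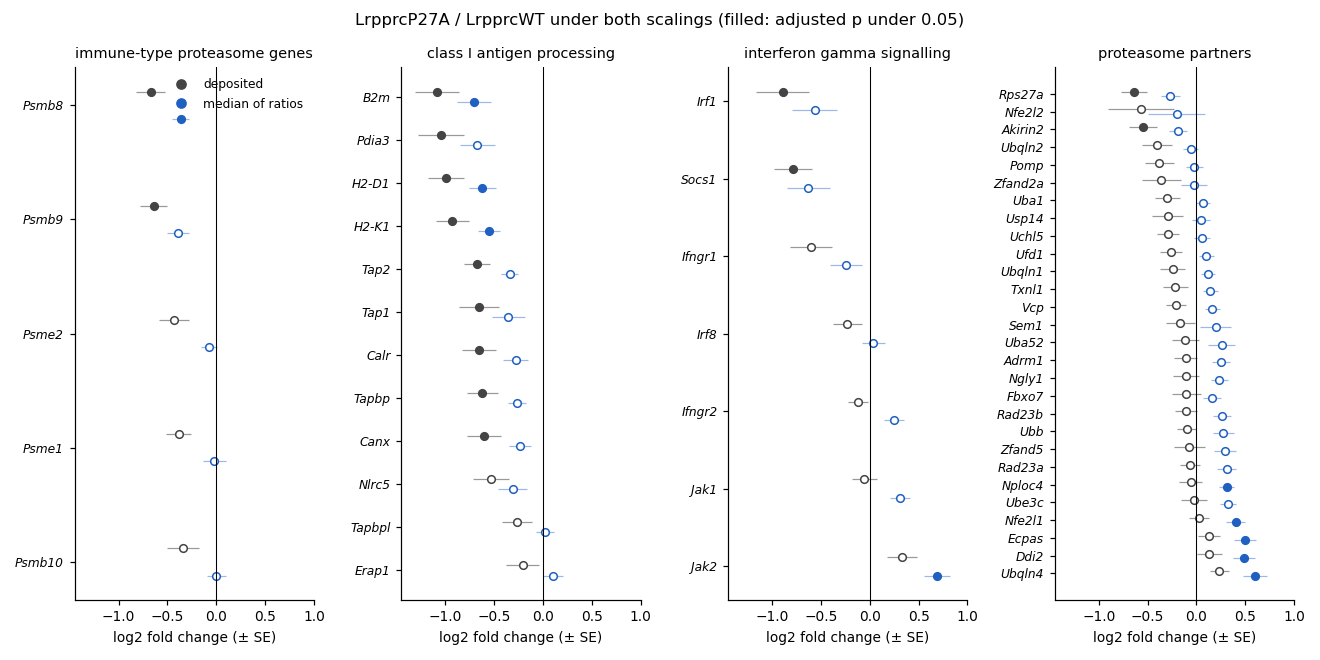
Log2 fold changes (± SE) of the immune-type proteasome genes, class I antigen processing, interferon gamma signalling and proteasome partners, on the deposited scale (dark) and the median-of-ratios scale (blue), filled where the adjusted p was under 0.05, for the list genes that are reported by name. The class I genes plotted reach from -1.08 (B2m) to -0.21 (Erap1) on the deposited scale, and the partners from -0.64 (Rps27a) to 0.23 (Ubqln4).

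Near-identical transcripts can share reads. Of the members, 6 had another annotated transcript of at least 95% identity over at least 300 bases and 50% of their length (Psma5, Psmb3, Psmd2, Psmd11, Psme2 and Psme2b). Psme2 and Psme2b were 99.4% identical over 795 bases, and how reads were split between them is not given in the sources used here, so that both values are uncertain. The copies of Psmd2 are a transcribed pseudogene (96.4% over 2726 bases) and a long non-coding RNA, neither of which had a row of its own, and the value of Psmd2 may include their reads. Psmb8, Psmb9, Psmb10, Psmb5 and Psme4 had no such copy.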

How the data were processed

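RNA of 6 TA muscles, 3 LrpprcWT and 3 LrpprcP27A, was sequenced with a TruSeq kit that does not mark strand. CLC Genomics Workbench was used by the authors for mapping to the GRCm39 genome, and the deposited table holds TPM per gene, without counts, so that the depth behind each value is unknown and no counting interval is given. TPM of a library sum to 1000000, and a rise of abundant transcripts lowers all others. Every column matched a labelled sample.

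Groups were compared on log2(TPM + 1) with limma 3.58.1 (R 4.3.3, eBayes with trend), over the 11611 genes with a mean of at least 1 TPM, with Benjamini-Hochberg adjustment over all of them and calls at an adjusted p under 0.05. The study's Kruskal-Wallis test, which cannot pass adjustment at this size, was an alternative. The script was run on simulated data with the same layout, drawn without pairing and without a general shift. There 193 of 200 genes changed by 2 on the log2 scale were recovered, with 9 false calls among 11611 genes. The strongest change of a member on the deposited scale was -0.67 (Psmb8), and the run does not show how well changes of that size are detected. P-values measure the spread between these muscles. The same numbers occur in the labels of both groups, which do not state that equal numbers mark contralateral muscles of a mouse. After subtraction of the group means same-numbered libraries correlated at 0.363, 0.528 and 0.356 (other combinations at most 0.0040). Equal numbers were therefore taken as pairs, and the fit with the replicate number as a block is given beside the named results and list counts that it changes.

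Members and gene lists were chosen with earlier results of these data known. Values by library are given for the catalytic subunits, Psme1 and Psme2, for the lowest and highest log2 fold change in each class of 3 or more tested members, and for any member called higher. From each pathway list the 3 lowest and 3 highest called genes were taken, with Nfe2l1, Nfe2l2, Pomp, Tap1, Nlrc5 and Irf1. Some list genes are counted but not reported here by name. Alternatives were another pseudocount, other filters on low values, 3 other scalings, the block, limma without trend, the Kruskal-Wallis test and each library left out. Start windows came from RefSeq (GRCm38.p6) and gene positions from GENCODE (GRCm39). Ratios, motif counts and figures were made in Python 3.11.15 with pandas 2.3.3, numpy 2.4.6 and matplotlib 3.10.9.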

Additional observations from a re-analysis of the deposited data

How the results depend on the processing

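The counts of called genes depended on the scale, the pairing and single libraries, and the cause was not tested beyond what each setting changes. Over all genes 2705 were lower and 156 higher, against 42 and 9 without the filter on low values, 1560 lower at a mean of at least 5 TPM, 5619 and 312 with the replicate block, 700 and 609 on the median-of-ratios scale, 658 lower after rescaling over nuclear genes without ribosomal RNA, 518 and 493 after quantile normalization, 1561 higher with block and median-of-ratios together, 5530 and 407 by the Kruskal-Wallis test at an unadjusted p under 0.05, and 15 to 6913 lower and 3 to 304 higher without 1 library. The 2 members called lower became 0 without the filter, 0 at a mean of at least 5 TPM (Psmb8 and Psmb9 are below it and were not tested there), 22 with the block, 1 with median-of-ratios, 0 with quantile normalization, 28 by Kruskal-Wallis and 0 to 34 without 1 library, the highest without LrpprcWT replicate 2, and the 0 called higher became 2 with median-of-ratios, 2 with quantile normalization, 8 with block and median-of-ratios and 0 to 0 without 1 library. For the partners, 2 lower and 0 higher became 0 lower without the filter, 7 with the block, 0 and 5 with median-of-ratios, 1 and 1 after nuclear rescaling, 1 and 3 with quantile normalization, 0 and 9 with block and median-of-ratios, 7 and 1 by Kruskal-Wallis, and 0 to 13 and 0 to 1 without 1 library. The 9 class I genes became 0 without the filter, 3 with median-of-ratios, 3 after nuclear rescaling, 3 with quantile normalization and 0 to 12 without 1 library. The 2 interferon gamma genes called lower became 0 without the filter, 1 at a mean of at least 5 TPM, 4 with the block, 0 on each of the median-of-ratios, nuclear and quantile scales and 0 to 4 without 1 library, and the 0 called higher became 1, 1 and 2 with median-of-ratios, quantile normalization, and block with median-of-ratios.

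The immunoproteasome ratio of -0.25 on the log2 scale was -0.44, -0.60 and -0.30 for Psmb8 over Psmb5, Psmb9 over Psmb6 and Psmb10 over Psmb7, and -0.28 to -0.23 without 1 library. Signs turned on the median-of-ratios scale, with and without the block, for Psmb10 (0.00021), Psmb6 (0.012), Psmb7 (0.30), Psma7 (0.21), Psmb2 (0.20), Psmc6 (0.011), Psmc2 (0.29), Psmd4 (0.24), Psmd6 (0.30), Psme3 (0.095) and Psmg1 (0.16). After nuclear rescaling they turned for Psmb7 (0.12), Psma7 (0.025), Psmb2 (0.013), Psmc2 (0.10), Psmd4 (0.054) and Psmd6 (0.11), and with quantile normalization for Psmb10 (0.012), Psmb7 (0.20), Psma7 (0.10), Psmb2 (0.092), Psmc2 (0.21), Psmd4 (0.14), Psmd6 (0.20), Psme3 (0.0056) and Psmg1 (0.18). Without 1 library Psmc2 ranged from -0.15 to 0.050, Psmd6 from -0.16 to 0.0037 and Nfe2l1 from -0.015 to 0.078. Of the 38 genes followed, all 38 kept direction and call with a pseudocount of 0.1 and with limma without trend. The block changed no direction and added 14 calls, and leaving out LrpprcWT replicate 2 added 15. The 3 muscles in each group and the unknown depth limit what differences could be detected.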
